A study of Mus musculus with 8 samples.

Results

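Chromatin accessibility in cerebellar granule neuron progenitors (GNPs) with 1 or both copies of Chd7 targeted was compared from 2 peak lists, the heterozygous (het) list and the homozygous mutant (mutant) list. All peaks on chromosomes 1 to 19 were taken, which gave 104396 het peaks and 170362 mutant peaks of 434365 peaks in the 3 lists of the series. Peaks of the lists that overlapped by 1 bp or more were called shared and were joined into regions, of which 92838 held peaks of both lists, 11169 held het peaks alone and 70507 held mutant peaks alone. The remaining list, from wild-type (WT) GNPs with 149637 autosomal peaks, is quoted where it shows what the other 2 lists cannot.

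All 8 libraries were ATAC-seq, an assay in which Tn5 transposase inserts adapters into accessible DNA. The cells were GNPs taken from mouse cerebellum at day 7 after birth (strain given as C56Bl6/J in the labels and as C57BL/6N in the study's methods). The labels name Chd7 wild type (3 libraries), Chd7 mutant (3) and Chd7 het (2). Per the study, heterozygous and homozygous mice carried Atoh1-Cre::Chd7 f/+ and Atoh1-Cre::Chd7 f/f, and WT mice in its other assays were Chd7 f/f without Cre. Atoh1-Cre acts in rhombic lip derivatives such as granule cells and not in Purkinje cells, and the study notes residual Chd7 protein in the posterior lobe of homozygous animals. The libraries of WT and mutant are described as technical replicates, and whether the het libraries are from separate animals is not given in the sources used here. Libraries of a genotype were pooled before peak calling, which leaves all values without replicate error and all differences untested.

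The lists differ in more than genotype. Per their headers, 30923002 tags after filtering lay behind the het list and 51030229 behind the mutant list, which is 1.65 times as many. Het tags of 107 bp were shifted by -100 bp and extended to 200 bp, whereas mutant tags of 76 bp were extended to 88 bp without a shift, and the alignments came from folders named for bowtie and for STAR. The extension sets the shortest possible peak, 200 bp in het and 88 bp in mutant, where 50.5% of peaks were shorter than 200 bp. Pileup, the number of extended tags at the summit, ran from 8 to 286 in het and from 7 to 176 in mutant, so heights were compared only as ranks within a list, from 0 to 100 with 100 the tallest. Genotype, depth, alignment and peak settings cannot be told apart in any comparison of these lists. The WT list had 50394313 tags of 107 bp and the settings of the mutant list (extension 90 bp).

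Chd7 is an ATP-dependent chromatin remodeller that slides nucleosomes, mostly at enhancers and promoters, and in the cerebellum it is expressed in granule cells. GNPs divide in the external granule layer under Sonic hedgehog (Shh) and then become granule neurons. Their fate depends on basic helix-loop-helix (bHLH) factors, Atoh1 in progenitors and Neurod1 in differentiating cells, which bind E-boxes such as CAGATG. CTCF is a DNA-binding protein found at loop anchors and insulators in most cell types.

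The 4 shared regions printed here are among those with the largest rank differences and show what the rank comparison is about. Each line gives 200 bases of the plus strand (GRCm38, the mm10 build of the lists) around the mutant summit, with CAGATG on either strand (CATCTG in the printed strand) and the CTCF core letters in capitals. The first 3 ranked higher in het and hold CAGATG. The last ranked higher in mutant and is the 1 of the 8 largest mutant-higher regions that holds the CTCF core letters. Such letters are not a bound site, and near copies of this sequence elsewhere were not counted.
Region 209 kb from Neil3, chr8:53848011-53848210: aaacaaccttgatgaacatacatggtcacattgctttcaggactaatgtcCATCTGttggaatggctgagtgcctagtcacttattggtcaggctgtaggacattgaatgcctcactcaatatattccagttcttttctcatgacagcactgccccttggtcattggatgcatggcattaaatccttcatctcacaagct
Region 442 kb from AC144945.1, chr19:49532786-49532985: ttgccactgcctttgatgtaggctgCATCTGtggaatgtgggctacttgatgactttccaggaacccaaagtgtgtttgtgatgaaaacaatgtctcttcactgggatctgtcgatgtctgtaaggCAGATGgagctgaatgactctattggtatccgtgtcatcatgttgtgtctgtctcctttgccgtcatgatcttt
Region 243 kb from Gm38839, chr6:81472471-81472670: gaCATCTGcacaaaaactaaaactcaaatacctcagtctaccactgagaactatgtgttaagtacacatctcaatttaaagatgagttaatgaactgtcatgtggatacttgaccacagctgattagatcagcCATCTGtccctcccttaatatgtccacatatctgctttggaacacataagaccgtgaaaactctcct
Region 31.8 kb from Nxnl2, chr13:51202732-51202931: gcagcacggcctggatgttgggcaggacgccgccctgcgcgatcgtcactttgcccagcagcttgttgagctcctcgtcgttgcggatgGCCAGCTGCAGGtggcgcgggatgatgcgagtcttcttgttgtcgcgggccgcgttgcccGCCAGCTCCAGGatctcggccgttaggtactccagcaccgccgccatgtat

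Regions that stood higher in het and regions that stood higher in mutant differed in sequence. Regions 20 or more rank points higher in het held the E-box CAGATG in 40.5% of cases (Wilson 95% CI 39.2 to 41.9%, 1991 of 4913). Regions 20 or more points higher in mutant held it in 24.5% (23.4 to 25.7%, 1348 of 5501). The CTCF core went the other way, with 8.10% (7.37 to 8.897%) in het-higher and 16.4% (15.5 to 17.4%) in mutant-higher regions. All intervals cover counting over regions only. Both classes were less often at promoters than the remaining regions. A transcription start site (TSS) lay within 1 kb of 9.69% of het-higher and 7.58% of mutant-higher regions, against 21.6% of regions within 20 points.

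Ranks were taken among the shared regions, from the tallest pileup of each list in the region. The difference, mutant rank minus het rank, had a median of -0.135 points, quartiles of -6.88 and 6.404 and an SD of 12.3 over 92838 regions. Pearson's r of the ranks was 0.909, a description over regions of pooled libraries. Differences of 20 or more points were found in 5.93% of regions with mutant higher and 5.29% with het higher. Most of these regions were of moderate height. The median pileup was 25 in het and 15 in mutant in the het-higher class and 16 and 24 in the mutant-higher class. Of the shared regions, 92.6% were made of 1 het and 1 mutant peak.

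**Figure D1:**
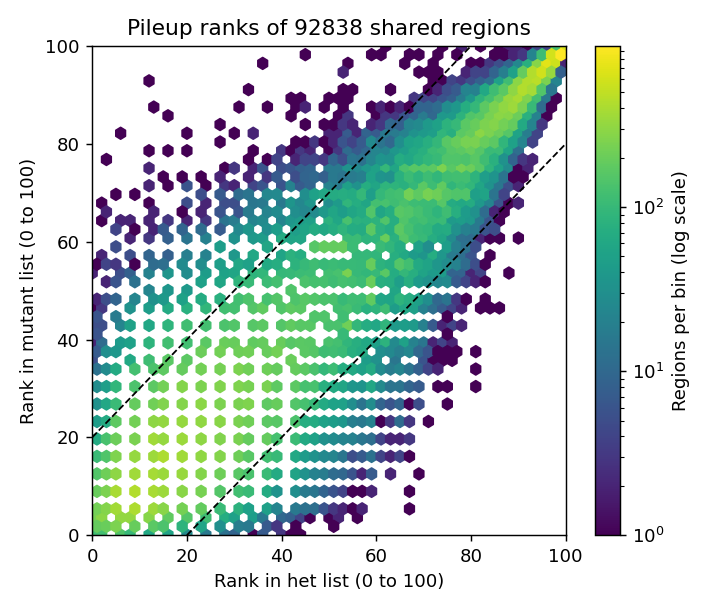
Pileup rank of each shared region in the het list (x axis) and in the mutant list (y axis), both from 0 to 100, as the number of regions per hexagonal bin on a log colour scale. Dashed lines mark a difference of 20 points; 5.93% of regions lie on or above the upper line and 5.29% on or below the lower line, most of them in the lower ranks, and gaps come from tied whole-number pileups.

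The share of regions with CAGATG was highest at the het-higher end of the rank difference and lowest at the mutant-higher end, though not falling at each step. It was 42.3% (39.4 to 45.3%) in the 1080 regions 30 or more points higher in het, 34.6% (33.8 to 35.5%) at 10 to 20 points higher in het, 26.6% (26.0 to 27.3%) between 0 and 5 points higher in mutant, 28.7% (27.8 to 29.6%) between 5 and 10 points and 23.6% (21.5 to 25.8%) in the 1513 regions 30 or more points higher in mutant. The CTCF core rose over the same bins from 6.30% (4.997 to 7.91%) to 18.7% (16.8 to 20.7%). A second E-box, CAGCTG, also bound by bHLH factors, moved little, from 26.9% (24.4 to 29.7%) to 23.9% (21.8 to 26.1%). These letters were searched on both strands in 200 bases around the mutant summit. For comparison, CAGATG was held by 29.1% of all het peaks and 27.4% of all mutant peaks, and the CTCF core by 10.97% and 10.1%.

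**Figure D2:**
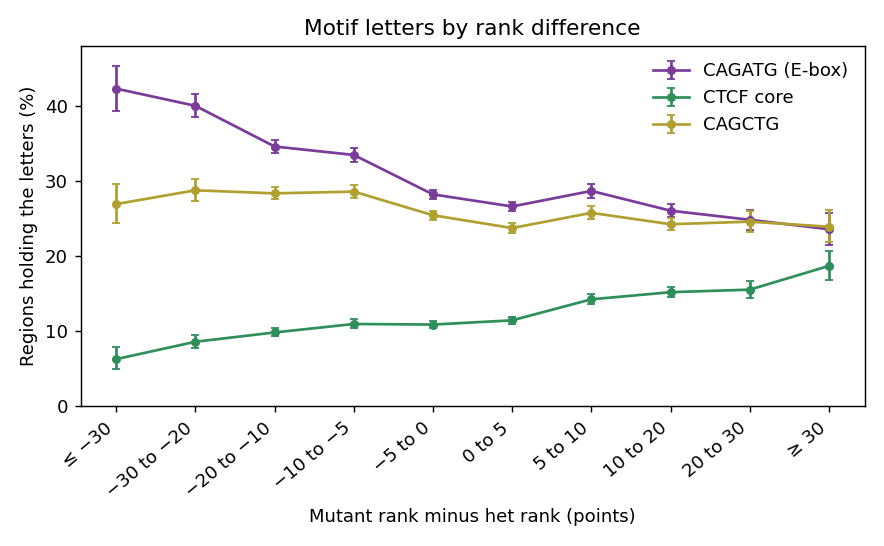
Share of shared regions holding CAGATG, the CTCF core or CAGCTG in 200 bases around the mutant summit (y axis, %), in bins of mutant rank minus het rank (x axis, points). Points are shares and bars Wilson 95% intervals over regions; CAGATG goes from 42.3% at the het-higher end to 23.6% at the mutant-higher end, the CTCF core from 6.30% to 18.7%.

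Base composition moved with the classes too. The median GC content of the 200 bases was 52% in het-higher, 49% in mutant-higher and 52.5% in the remaining regions. Within GC classes the order was the same. At 45% GC or less, CAGATG was held by 41.3% (37.7 to 45.1%) of het-higher and 25.8% (23.6 to 28.1%) of mutant-higher regions, and above 55% GC by 32.9% (30.5 to 35.4%) and 17.6% (15.1 to 20.3%). The CTCF core was found in 4.69% (3.34 to 6.55%) and 21.6% (19.5 to 23.8%) at 45% GC or less, and in 12.4% (10.7 to 14.2%) and 16.0% (13.7 to 18.6%) above 55%. Outside promoters CAGATG was held by 42.1% of het-higher and 25.2% of mutant-higher regions.

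The order was also the same within bins of height. Regions were split into 4 bins of mean rank. In the lowest bin CAGATG was present in 38.0% (35.5 to 40.6%) of 1385 het-higher and 27.7% (25.4 to 30.1%) of 1383 mutant-higher regions. In bin 3 the values were 46.3% (43.1 to 49.5%) of 925 and 22.3% (19.9 to 24.9%) of 1040. The tallest bin had 5 het-higher and 30 mutant-higher regions, too few for a share.

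Other letters differed less or were rare. CAGCAGG was held by 14.5% (13.5 to 15.5%) of het-higher and 11.8% (10.97 to 12.7%) of mutant-higher regions. The Gli site TGGGTGGTC, bound by the transcription factors at the end of the Shh pathway, was found in 20 het-higher regions (0.407%, 0.264 to 0.628%) and 2 mutant-higher regions (0.0364%, 0.00997 to 0.132%), beside 0.290% of all shared regions. The NFI palindrome was present in 6 and 7 regions. A match is a run of letters and not a bound site.

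The WT list, made with the settings of the mutant list, places these regions. A WT peak overlapped 94.2% (93.5 to 94.8%) of het-higher and 95.4% (94.8 to 95.9%) of mutant-higher regions. Ranks were therefore recomputed over the 86891 regions with peaks in all 3 lists. Regions with CAGATG had median ranks of 49.6 in WT, 49.9 in het and 47.9 in mutant, against 49.6, 49.9 and 50.4 without it. Regions with the CTCF core had median ranks of 52.1 in WT, 49.9 in het and 52.9 in mutant. Region by region, the median difference for CAGATG regions was -1.22 points between mutant and het, -1.44 between mutant and WT and 0.0138 between WT and het. For CTCF core regions the same differences were 1.13, 0.950 and 0.218 points. These are shifts of about 1 point, small beside the SD of 12.3 points over regions.

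The same classes of 20 or more points were then formed for each pair of lists. CAGATG was held by 41.2% (39.9 to 42.6%) of regions higher in het than in mutant and 24.3% (23.2 to 25.5%) of those higher in mutant. Between WT and mutant the values were 43.3% (42.0 to 44.6%) and 26.3% (25.1 to 27.5%). Between WT and het they were 33.7% (32.4 to 35.1%) of WT-higher and 30.02% (28.6 to 31.5%) of het-higher regions. The CTCF core was held by 15.3% (14.3 to 16.3%) of WT-higher and 9.85% (8.97 to 10.8%) of het-higher regions in that pair, and by 8.65% (7.96 to 9.40%) of WT-higher and 11.99% (11.2 to 12.9%) of mutant-higher regions between WT and mutant. Each list enters 2 of the 3 pairs, so these values are not independent of each other. Tag size was 107 bp in WT and het and 76 bp in mutant, and the part of tag size in the CAGATG values was not tested.

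**Figure D3:**
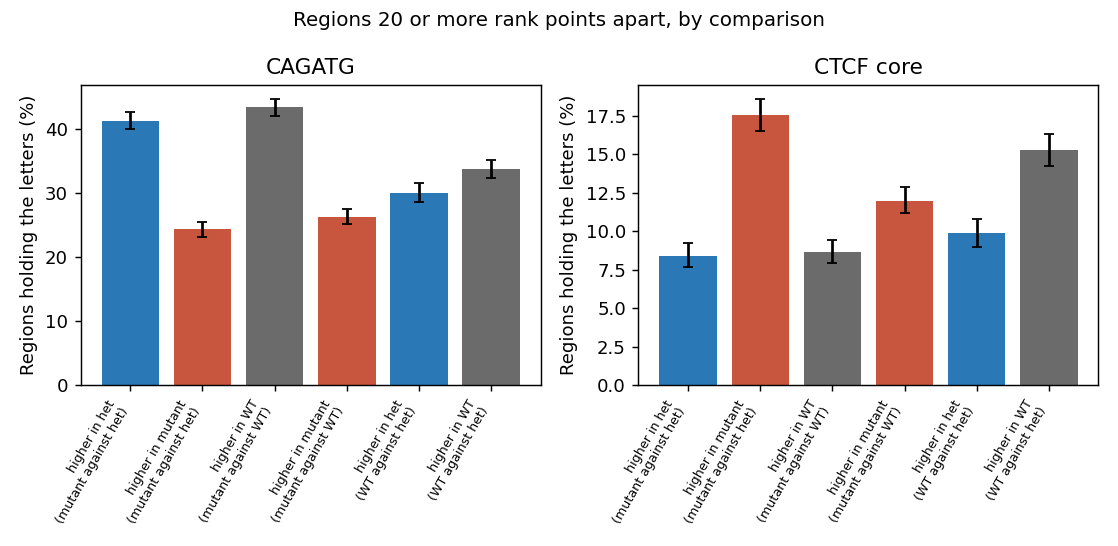
Share of regions holding CAGATG (left) or the CTCF core (right), in %, among regions 20 or more rank points apart in each pair of lists, ranked over the 86891 regions with a peak in all 3. Bars are coloured by the list in which the region ranked higher and error bars are Wilson 95% intervals over regions; CAGATG is lowest in the classes higher in mutant (24.3% and 26.3%), and the CTCF core is highest in the classes lower in het (17.5% and 15.3%).

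Single regions show the size of the largest differences. The region printed above near Neil3 (a DNA repair glycosylase), at chr8:53847699-53848220 and 209 kb from its TSS, had a pileup of 56 in het (rank 81.3) and 18 in mutant (rank 30.01), and ranked 74.6 in WT. The region near AC144945.1 (chr19:49532739-49533299) had 30 and 11 tags, ranks of 56.6 and 5.88, and 64.5 in WT. The region near Gm38839 (chr6:81472462-81472894) had 39 and 13 tags, ranks of 68.7 and 12.4, and 56.7 in WT. In all 3 the WT rank was on the side of het. Regions chosen for a large het to mutant difference have low mutant ranks, which makes this side likely beforehand. WT ranks of single regions are over the 86891 regions with peaks in all 3 lists, and het and mutant ranks over all 92838 shared regions.

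The other 5 of the 8 largest het-higher differences lay in or near Gm26804, 4930522N08Rik, Gm4409, Gm29137 and Hpcal1, a neuronal calcium sensor. The largest, an intronic region 30.6 kb from its nearest TSS, that of the predicted gene Gm26804 (chr8:20322511-20323129), had ranks of 66.5 and 5.88. It had no WT peak, 86% of its 200 bases were repeat-masked and its summit sequence occurred 4 times in the genome. The 7 others had WT ranks from 46.9 to 74.6. CAGATG was present in 4 of the 8, all of them intergenic or intronic and at least 7.47 kb from a TSS.

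The 8 largest mutant-higher differences were of another kind. The first was the TSS of the histone gene Hist1h4n (chr13:21831462-21832304), with a pileup of 14 in het (rank 12.1) and 62 in mutant (rank 91.8), and a WT rank of 81.5. Then came a repeat-masked intergenic region near Gm14496, the TSS of Dynlt1c (a dynein light chain; 14 and 54 tags, ranks 12.1 and 87.9) and a region 55.3 kb from Pdia4, an endoplasmic reticulum isomerase. A repeat-masked intronic region nearest to a TSS of Smo, the signal transducer of the Shh pathway (chr6:29747913-29748706), had 15 and 52 tags and ranks of 16.0 and 86.8. Regions near Gm47772, Nxnl2 and Mdm1 completed the list. None of the 8 held CAGATG, and 1, near Nxnl2, held the CTCF core. All 8 had a WT peak, with WT ranks from 38.0 to 88.1, in each case above the het rank. The choice of regions made their het ranks low, from 2.55 to 16.0, so this order is largely set by that choice. The 76 bases around the summit, the length of a mutant tag, occurred 2 times in the genome for Hist1h4n and Gm14496 and 8 times for Pdia4.

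Such copies were rare in both classes, though more frequent in mutant-higher regions. Another exact copy of the 76 summit bases was found for 67 mutant-higher regions (1.22%, 0.960 to 1.54%) and for 7 het-higher regions (0.142%, 0.0690 to 0.294%). The share was 0.178% over all shared regions and 0.110% over those within 20 points. Without all regions with another exact copy, 5434 mutant-higher and 4906 het-higher regions were counted. The TSS regions of 55 histone genes had a median difference of -0.343 points, and Hist1h4n was the single one 20 or more points higher in mutant. Counts of both classes rose to 9269 mutant-higher and 8231 het-higher regions when regions were ranked by fold enrichment. Ranked among all peaks of their own list instead, 23429 were higher in mutant and 677 in het, since the mutant list has many more low peaks.

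Most het peaks had a counterpart in mutant, and the reverse held less often. A mutant peak overlapped 89.3% of het peaks, and 10.7% had none. A het peak overlapped 58.6% of mutant peaks, and 41.4% had none. Unshared peaks were low and far from promoters in both directions. Het peaks without a mutant peak had a median pileup of 12 against 26 for shared ones and a median width of 237 bp against 408 bp. Mutant peaks without a het peak had a median pileup of 11 against 24 and a width of 128 bp against 311 bp. With each list cut to its 78297 tallest peaks, 82.0% of het and 85.5% of mutant peaks were shared. Most shared regions (92.6%) held 1 peak of each list, so lists of equal length must give similar shares in both directions. This cut therefore cannot test the gap between the directions.

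Sharing rose steeply with height in both lists. Among het peaks it was 49.0% (48.1 to 49.9%) in the lowest decile of pileup (8 to 12 tags), 96.7% (96.4 to 97.03%) in the fifth and 99.99% in the tenth. Among mutant peaks it was 12.7% (12.2 to 13.2%) in the lowest decile (7 to 9 tags), 51.6% (50.9 to 52.2%) in the fifth and 99.6% (99.5 to 99.7%) in the tenth. In the tallest decile 1 of 10342 het peaks and 62 of 16977 mutant peaks lacked a partner.

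**Figure D4:**
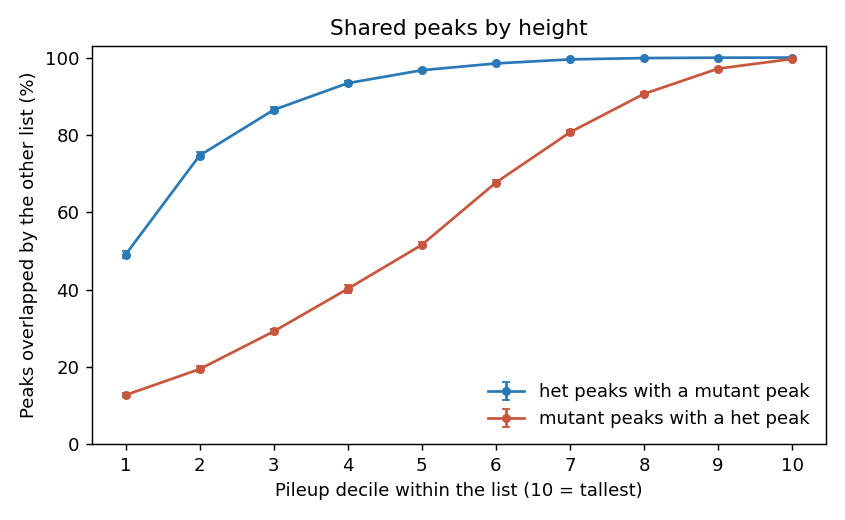
Share of peaks overlapped by a peak of the other list (y axis, %) by decile of pileup within the list (x axis, 10 is the tallest), for het peaks and mutant peaks. Bars are Wilson 95% intervals over peaks and mostly smaller than the points; het peaks go from 49.0% to 99.99% and mutant peaks from 12.7% to 99.6%.

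How often a WT peak lay at the same place differed with height. It overlapped 93.4% (93.2 to 93.5%) of shared het peaks and 30.9% (30.04 to 31.8%) of het peaks without a mutant peak. The values for mutant were 92.0% (91.9 to 92.2%) and 37.0% (36.6 to 37.3%). Of the 1151 unshared mutant peaks in the tallest of 4 height bins of that list, 78.6% (76.2 to 80.9%) had a WT peak, and of the 9448 in bin 3, 66.2% (65.3 to 67.2%) had one. Of the 238 unshared het peaks in bin 3 of the het list 63.4% (57.2 to 69.3%) had one. In the lower bins the het share was above the mutant one, 26.1% and 22.8% in the lowest and 55.1% and 45.3% in bin 2. In the tallest mutant decile 58 of the 62 unshared peaks had a WT peak.

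Location was read at the summit. A TSS within 1 kb was found for 6.49% (6.05 to 6.96%) of het peaks without a mutant peak and 20.3% (20.1 to 20.6%) of shared het peaks. The mutant values were 7.46% (7.27 to 7.66%) and 21.1% (20.9 to 21.4%). Intergenic summits made up 49.9% (49.0 to 50.8%) of unshared and 37.1% (36.8 to 37.4%) of shared het peaks, and 46.1% (45.7 to 46.5%) and 36.6% (36.3 to 36.9%) of mutant peaks. Seen from the gene, 3.69% of het peaks and 19.97% of mutant peaks at a TSS had no partner, the lowest shares of the 4 locations.

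The promoter shares depended on height. In the lowest of the 4 height bins of the het list a TSS was near 4.77% (4.35 to 5.22%) of unshared and 6.32% (5.96 to 6.70%) of shared peaks. In bin 2 the order turned, with 13.8% (12.2 to 15.7%) and 9.39% (9.03 to 9.77%), and in bin 3 it was 27.3% (22.04 to 33.3%) of 238 and 15.5% (15.1 to 15.9%). In the mutant list the order turned in bin 3, 16.4% (15.7 to 17.2%) and 13.5% (13.1 to 13.8%), and turned back in the tallest, 27.3% (24.8 to 29.9%) and 34.9% (34.5 to 35.4%). Equal list lengths gave a TSS share of 9.99% for unshared het and 15.8% for unshared mutant peaks.

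Unshared peaks also differed in sequence. Over all heights CAGATG was held by 25.8% (24.97 to 26.6%) of unshared and 29.5% (29.2 to 29.7%) of shared het peaks, and by 25.1% (24.8 to 25.4%) and 29.05% (28.8 to 29.3%) of mutant peaks. The CTCF core was held by 4.57% (4.19 to 4.97%) and 11.7% (11.5 to 11.9%) of het peaks, and by 8.15% (7.95 to 8.35%) and 11.5% (11.3 to 11.7%) of mutant peaks. Among tall mutant peaks the CTCF order was the other way. In the tallest height bin of the mutant list, CAGATG was held by 18.7% (16.5 to 21.0%) of unshared and 27.4% (27.0 to 27.9%) of shared peaks, and the CTCF core by 18.4% (16.3 to 20.8%) and 12.9% (12.5 to 13.2%). In bin 3 of the het list, CAGATG was held by 31.5% (25.9 to 37.7%) of unshared and 31.5% (30.9 to 32.04%) of shared peaks, and the CTCF core by 7.14% (4.51 to 11.1%) and 14.6% (14.2 to 15.02%). Repeat-masked bases outnumbered the other bases of the window in 9.58% (9.05 to 10.1%) of unshared and 1.96% (1.87 to 2.05%) of shared het peaks, and in 11.4% (11.2 to 11.7%) and 2.05% (1.96 to 2.14%) of mutant peaks. Another exact copy of the summit sequence was present for 0.439% of unshared and 0.146% of shared het peaks, and for 0.451% and 0.0611% of mutant peaks.

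The tallest peaks without a partner within 300 bp are shown by 1 peak within 1 kb of a TSS from each list. Again 200 bases of the plus strand (GRCm38) around the summit are given. In both labels, start means only that the summit lay within 1 kb of a TSS. The Gm15564 summit lay 0.597 kb from the annotated start, so its printed bases do not reach that start. Neither holds CAGATG or the CTCF core letters, so no base is in capitals.
Pcdh7 start, het only, chr5:57718978-57719177: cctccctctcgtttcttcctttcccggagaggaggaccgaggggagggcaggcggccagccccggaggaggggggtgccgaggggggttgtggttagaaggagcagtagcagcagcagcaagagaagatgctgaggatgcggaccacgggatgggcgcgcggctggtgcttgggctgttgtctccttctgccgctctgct
Gm15564 start, mutant only, chr16:35981639-35981838: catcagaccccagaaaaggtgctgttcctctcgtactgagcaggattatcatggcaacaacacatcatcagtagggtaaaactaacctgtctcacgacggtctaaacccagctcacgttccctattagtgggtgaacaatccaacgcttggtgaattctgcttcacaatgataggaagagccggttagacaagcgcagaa

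The Pcdh7 peak lay 0.020 kb from the TSS of this protocadherin, a cell adhesion gene, at chr5:57719018-57719232. It had 54 tags but a fold enrichment of 2.04 over its local background, and a WT peak overlapped it. The other tall het peaks without a mutant peak are named by their nearest TSS. They included 3 intronic peaks at the predicted gene Gm15319 (93, 54 and 52 tags) and an exonic peak at Btbd17 (50 tags). Intronic peaks at Pcca, a propionyl-CoA carboxylase subunit, and at Tnfaip8 had 49 and 41 tags. The last, 5.49 kb from the vomeronasal receptor gene Vmn1r124, had 42 tags. The summit sequences at Gm15319 occurred 5, 12 and 5 times in the genome and that near Vmn1r124 20 times. WT peaks overlapped 3 of the 8, at Pcdh7, Btbd17 and Tnfaip8.

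The tallest mutant peaks without a het peak had 76 to 106 tags and all 8 had a WT peak. The peak 0.597 kb from the start of Gm15564 (chr16:35981669-35981811) had 80 tags and a fold enrichment of 9.81. Its summit sequence had no other exact copy, but near copies were not counted. The tallest, an exonic peak nearest to a TSS of Gm10801 (chr2:98663772-98664056), had 106 tags, and 73% of its window was repeat-masked. Peaks at Gm10718, Gm10719 (2 peaks) and Gm10717 lay together on chromosome 9 between 3020201 and 3027212, with 94.5 to 100% of the window masked. The last 2 were an intronic peak nearest to a TSS of Tmem267 (96 tags) and a peak near the TSS of Gm13283 (79 tags). Within 300 bp, 51 mutant peaks and 1 het peak of the tallest decile had no partner.

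Chd7-activated genes, the genes whose RNA the study found lower in homozygous mutant GNPs, held more het-higher than mutant-higher regions. Of 1290 shared regions in 135 of 137 matched genes, 91 were 20 or more points higher in het (7.05%, 5.78 to 8.58%) and 63 higher in mutant (4.88%, 3.84 to 6.20%). Over the regions of all genes the values were 5.002% (4.83 to 5.18%) and 5.19% (5.01 to 5.36%). The median difference was -0.571 points in Chd7-activated genes, -0.234 over all genes and -0.135 over all shared regions. In the second list of the study, genes activated by both Chd7 and the topoisomerase Top2b, 183 of 2921 regions (6.26%, 5.44 to 7.203%) were higher in het and 151 (5.17%, 4.42 to 6.03%) in mutant. The study picked the first list from RNA of GNPs of the same genotypes. It picked the second from RNA of cultured postmitotic granule neurons, by Chd7 loss and by a topoisomerase II inhibitor. Neither gene list is therefore independent of the mutant. Ranked among all peaks of each peak list, the median of Chd7-activated genes turned to 8.33 points, beside 9.70 over all shared regions.

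Peaks without a partner were also somewhat more frequent in these genes at the main setting, before matching for length. Of 1480 het peaks in Chd7-activated genes, 12.4% (10.8 to 14.2%) had no mutant peak, compared with 8.71% (8.50 to 8.92%) of peaks in all genes. Of 2421 mutant peaks, 42.2% (40.3 to 44.2%) had no het peak, compared with 37.7% (37.4 to 38.0%). The median length was 69.7 kb for Chd7-activated genes and 13.3 kb for all genes. In genes of 300 kb or more, the het values were 14.3% (12.2 to 16.7%) in the list and 12.1% (11.6 to 12.6%) in all genes, and the mutant values were 44.8% (42.3 to 47.2%) and 44.03% (43.4 to 44.6%). In genes of 20 to 100 kb they were 6.90% (3.99 to 11.7%) and 7.37% (7.05 to 7.71%) for het, and 25.8% (20.7 to 31.7%) and 34.6% (34.1 to 35.1%) for mutant. In that length class neither list value was above that of all genes. In genes of 100 to 300 kb both were, with 11.6% (8.36 to 16.0%) and 8.99% (8.59 to 9.40%) for het. The mutant values there were 44.5% (40.1 to 49.0%) and 39.6% (39.1 to 40.2%). Under 20 kb they were 2.67% (0.734 to 9.21%) and 5.77% (5.42 to 6.14%) for het, and 31.4% (23.7 to 40.2%) and 29.9% (29.3 to 30.5%) for mutant. With peaks of 200 bp or more alone, a limit that removes mutant peaks and no het peak, the values were 32.8% for het and 11.8% for mutant. Under that limit 68.7% of all autosomal het peaks and 87.1% of all autosomal mutant peaks had a partner. The mutant share without a partner was then not above that of all peaks.

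The same length classes were applied to the rank differences. In Chd7-activated genes of 20 to 100 kb, 14 of 161 regions (8.70%, 5.25 to 14.1%) were higher in het and 2 (1.24%, 0.341 to 4.42%) in mutant, compared with 4.37% (4.11 to 4.65%) and 4.81% (4.54 to 5.10%) in all genes of that length. In those of 300 kb or more the values were 6.93% (5.39 to 8.88%) and 5.596% (4.22 to 7.38%), compared with 6.34% (5.94 to 6.76%) and 5.99% (5.61 to 6.403%). At 100 to 300 kb they were 6.61% (4.11 to 10.5%) and 5.79% (3.48 to 9.48%), compared with 5.39% (5.07 to 5.74%) and 5.75% (5.41 to 6.10%). Under 20 kb they were 5.48% (2.15 to 13.3%) and 1.37% (0.242 to 7.36%), compared with 3.81% (3.51 to 4.13%) and 3.66% (3.37 to 3.97%). CAGATG was held by 32.2% of shared regions in Chd7-activated genes and 27.4% in all genes, without regard to length. At 300 kb or more the values were 33.7% and 33.4%, and at 100 to 300 kb 29.3% and 30.8%. At 20 to 100 kb they were 31.1% and 24.7%, and under 20 kb 24.7% and 19.1%.

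Reln, the secreted protein that positions migrating neurons, held regions that differed in both directions, with the larger differences on the het side. The gene (ENSMUSG00000042453.14, chr5:21884454-22344702, minus strand) held 38 het and 50 mutant peaks, of which 3 and 11 had no partner. Its promoter region had 52 tags in het (rank 79.0) and 41 in mutant (rank 77.8). Of 35 shared regions, 5 were 20 or more points higher in het and none higher in mutant, with a median of -4.53 points. Of the 35, 11 ranked higher in mutant by less than that, up to 19.3 points at 59.1 kb from the TSS. The largest differences were at 44.5 kb from the TSS (chr5:22300129-22300374), with 26 and 14 tags and ranks of 49.1 and 15.9, and at 225 kb (chr5:22119344-22119670), with 47 and 22 tags and ranks of 75.7 and 42.9. The 5 het-higher regions were all intronic and each had a WT peak. CAGATG was held by 3 of them, beside 40.5% of all het-higher regions. In all genes of 300 kb or more, 6.34% of regions were het-higher and 5.99% mutant-higher.

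**Figure D5:**
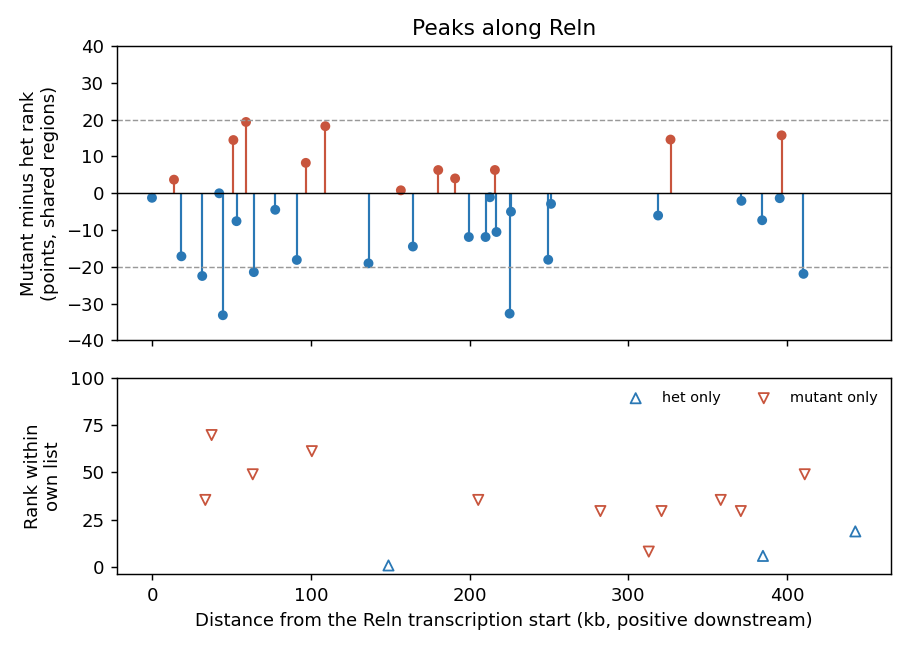
Peaks along Reln by distance from its transcription start (x axis, kb, positive downstream): above, mutant rank minus het rank in points for each of the 35 shared regions (blue het higher, red mutant higher, dashed lines at 20 points either way), and below, the rank within its own list of each peak without a partner. On the het side 5 regions reach 20 points, on the mutant side none does, and the 3 het-only peaks sit in the lowest ranks.

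The other example genes of the study varied, beside 5.002% het-higher and 5.19% mutant-higher regions over all genes. Bmp5, a BMP ligand (chr9:75775364-75900310), held 9 het and 16 mutant peaks, and 2 of its 6 shared regions were het-higher. The one at 11.9 kb (chr9:75787097-75787469), which holds CAGATG, had 32 and 15 tags and ranks of 59.8 and 19.5. In Nkain3, a sodium pump interacting protein, a CAGATG region at 140 kb (chr4:20638958-20639442) had 40 and 19 tags and ranks of 69.7 and 33.4, while another, at 252 kb and also with CAGATG, was 24.6 points higher in mutant. Unc5c, a netrin receptor, had 1 het-higher region of 24, 131 kb from its TSS, also with CAGATG. Cadps2, which primes dense-core vesicles, had 2 mutant-higher and 1 het-higher region of 19 and a median of 2.22 points.

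The tallest shared region at a TSS of each example gene differed by 5 points or less where there was one. At Fstl5, a follistatin-like secreted protein, the TSS region ranked 97.6 in het and 97.9 in mutant, at Neurod1 98.2 and 97.2, at Unc5c 99.6 and 99.9, and at Cadps2 88.4 and 90.5. At Gap43, a growth cone protein, the ranks were 87.7 and 92.2, and a lower region 0.889 kb from its start (chr16:42339449-42339867) ranked 59.8 and 74.4. Fstl5 stood apart in its low peaks. It held 9 het and 24 mutant peaks, of which 4 and 19 had no partner, and its 19 unshared mutant peaks had 7 to 16 tags. Gap43 (12 het and 16 mutant peaks) and Neurod1 (5 and 7) had no unshared het peak and 2 unshared mutant peaks each.

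The targeted gene Chd7 (ENSMUSG00000041235.12, chr4:8690406-8867659, plus strand) held 20 het and 37 mutant peaks, of which 4 and 19 had no partner. The region at its start (chr4:8689818-8691377) had 63 tags in het (rank 84.7) and 52 in mutant (rank 86.8). Of 16 shared regions 1 was 20 or more points apart, an intronic region at 121 kb that was 24.9 points higher in het. Peak lists do not show whether the floxed part was deleted, so they do not check the genotype.

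GNP identity genes were accessible in both lists with similar ranks. At Atoh1, which defines the progenitors, the TSS region ranked 92.4 in het and 94.7 in mutant, and its 2 peaks were shared. Pax6 ranked 91.0 and 92.2, Zic1 96.9 and 98.4, Mycn 95.2 and 95.3, and Barhl1 62.7 and 60.1. Over the 20 genes of the granule identity list, 19 had a shared TSS region, with a median difference of 0.340 points from -7.33 (Neurod6) to 6.58 (Nfix). Of their 154 shared regions, 8 were het-higher (5.19%, 2.66 to 9.92%) and 1 mutant-higher (0.649%, 0.115 to 3.59%). Over all genes the shares were 5.002% and 5.19%, so the het-higher share was near that of all genes. The single shared region of Zic2, across its start but with its mutant summit at -1.17 kb (chr14:122473951-122475518), had 168 and 94 tags and ranks of 99.6 and 99.02.

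Shh pathway genes, which drive GNP division, had 114 shared regions, of which 4 were het-higher (3.51%, 1.37 to 8.68%) and 7 mutant-higher (6.14%, 3.01 to 12.1%), with a median of -1.83 points. Both intervals held the all-gene shares of 5.002% and 5.19%, and the all-gene median was -0.234 points. Their 17 TSS regions ran from -10.9 points at Gpr161 to 13.1 points at Kif7. At the receptor Ptch1 the tallest TSS region, at a TSS within the gene, ranked 94.0 and 95.3, and the region at the gene start (chr13:63573348-63573921) had 34 and 23 tags and ranks of 62.7 and 45.8. Gli1 ranked 84.2 and 82.4 at its tallest TSS region and 66.5 and 63.9 at its start, and Gli2 94.0 and 91.8 at the former and 89.9 and 90.5 at the latter. Ccnd1, a cyclin induced by Shh, ranked 77.8 and 73.1. Replication and mitosis genes had 30 shared regions with a median of 1.68 points, and 15 of 20 TSS regions ranked higher in mutant, from -5.04 (Plk1) to 10.6 (Aurkb).

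Lists of later neuronal function had small negative medians, as the Shh list did. Neuronal differentiation genes had 283 shared regions with a median of -1.55 points, 22 of them het-higher (7.77%, 5.19 to 11.5%) and 16 mutant-higher (5.65%, 3.51 to 8.99%). Migration and guidance genes had 595, with a median of -0.896 points, 43 het-higher (7.23%, 5.41 to 9.59%) and 37 mutant-higher (6.22%, 4.54 to 8.45%). Over all genes 5.002% of regions were het-higher and 5.19% mutant-higher. Their TSS regions stayed within -7.200 (Nefl) to 7.19 points (Rbfox3) and -7.10 (Slit3) to 3.96 points (Bdnf). The 10 Chd family genes had 59 shared regions, 2 in each class, and TSS differences from -18.1 (Chd5) to 3.91 (Chd9). The 6 topoisomerase genes had no unshared peak among 15 het and 16 mutant peaks, with intervals up to 20.4% and 19.4%. Over all genes 8.71% of het and 37.7% of mutant peaks were unshared.

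As a group, markers of other cerebellar cell types ranked lower in mutant at their TSS regions, though hardly so for Purkinje and microglia genes. Their regions of 20 or more points were evenly split. Of their 222 shared regions 14 were het-higher and 14 mutant-higher (6.31% each, 3.79 to 10.3%), with a median of -1.31 points. Over all genes the shares were 5.002% and 5.19% and the median -0.234 points. Of 46 such genes, 34 had a shared TSS region, 9 ranked higher in mutant and the median difference was -3.36 points, compared with -0.0571 over 17265 genes, of which 8364 ranked higher in mutant. The median TSS ranks of these markers were 72.4 in het and 68.1 in mutant, lower than those of the granule identity list (92.4 and 93.3) and of all genes (87.4 and 87.9). By cell type the median difference was -0.164 points for 7 Purkinje genes, -1.88 for 8 Bergmann glia and astrocyte genes, -5.10 for 4 oligodendrocyte genes, -0.0264 for 2 microglia genes, -3.59 for 6 endothelial genes, -11.2 for 3 interneuron genes and -9.61 for 4 meningeal and pericyte genes. The extremes were Lum (26 and 16 tags, -26.0 points) and Ppp1r17 (26 and 37 tags, 24.1 points). Fewer cells of a type and less accessibility per cell cannot be told apart in these bulk lists, and the part of cell composition in the results above was not tested.

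Genes with many peaks varied widely in the share of mutant peaks without a het peak. Among 1025 protein-coding genes with 20 or more mutant peaks, with a median length of 295 kb, a median of 40.6% of mutant peaks had no het peak. The share was highest in Dok6 (83.3% of 30), Pde1a (81.3% of 32), Fstl5 (79.2% of 24), Mgat4c (78.4% of 51) and Khdrbs2 (77.8% of 27), genes of 295 to 710 kb. It was lowest in Mical2 (11.5% of 26), Fam19a5 (3 of 25), Tbc1d1 (14.8% of 27) and, at 3 of 20 each, Adk and Cpne4, genes of 187 to 487 kb. Among 777 genes with 15 or more het peaks, a median of 9.09% of het peaks had no mutant peak, and the highest shares were in Galnt13 (41.2% of 17), Edil3 (38.9% of 18), Mgat4c and Ccdc148 (35.3% of 17 each) and Hmcn1 (34.8% of 23). Mgat4c, a glycosyltransferase gene, was among the highest in both directions.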

How the data were processed

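ATAC-seq peak lists of GNPs at postnatal day 7 were analysed, 1 deposited list per genotype from pooled libraries. Per the submitters' processing notes, reads were trimmed with Trim Galore 0.4.1, aligned to mm10 with STAR 2.5.0b (WT, mutant) or Bowtie 1.0.0 (het), and cleared of duplicates with Picard 1.139. Peaks were called by the authors with MACS2 2.1.0.20150731 per the file headers, without a control, at a q-value cutoff of 0.05. In the methods of the study bowtie and a shift are given without a distinction by genotype, which the mutant and WT headers do not show. Pileup is the signal the authors deposited at each summit, with no scaling for depth. The authors deposited fold enrichment, a ratio of pileup to local background, and the −log10 of each q-value, while the column of p-values was not used.

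Peaks on chromosomes 1 to 19 were kept. Peaks were shared at 1 bp of overlap, and the overlap counts were checked against bedtools 2.31.1 and on simulated peaks. Regions were ranked by pileup among shared regions, and 20 points were taken as a difference. Location used the GENCODE vM21 annotation, restricted to genes coding for proteins or long non-coding RNAs, and a gene took peaks in its body, 5000 bp upstream and 1000 bp downstream. The tallest unshared peaks and the largest rank differences were named by the nearest TSS. Their exon or intron was that of any gene there, not checked to be the named gene. The TSS region of a gene was the tallest shared region with its mutant summit within 1 kb of any annotated TSS of that gene, which need not be the gene start. Letters were read in 200 bases around the summit on GRCm38, and exact copies of the 76 summit bases were counted on both strands of the assembled chromosomes, near copies not being counted. Genes that share near-identical copies are therefore uncertain. Gene lists were written for this work or came, as names alone, from a supplement of the study. Of 151 Chd7-activated genes 137 were matched on autosomes, and of 203 Chd7 and Top2b activated genes 187, with 34 genes in both. The members, gene lists, letters and named genes were chosen with earlier results of these data known. Named genes were Chd7, the study's examples, genes at the 8 tallest unshared peaks and the 8 largest rank differences each way, genes with extreme unshared shares, the extreme TSS regions of each list and known GNP genes. Shares carry Wilson 95% intervals, which cover counting error over peaks only, since PCR copies and neighbouring peaks are not independent. No test across replicates was possible. Alternatives were other overlap rules, stricter q, equal list lengths, a minimum width, other ranking values and other gene assignments. Calculations used python, numpy and pandas.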

Additional observations from a re-analysis of the deposited data

Results flagged for a closer look

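Outside the autosomal comparison, 71 het peaks fell on 22 sequences that are not assembled chromosomes, 32 of them on a single one. The WT and mutant lists held 0 such peaks. This was picked out because it is signal in rows that no comparison used. The cause was not tested, and the alignments of het and of the other lists came from different aligners.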

How the results depend on the processing

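No paired analysis was possible because each genotype has 1 list called on pooled libraries, and for the same reason no replicate could be left out. Of 58 recomputed values, 20 stayed within the counting interval or within 1.5 times the count, 37 moved and 1 reversed; the cause was not tested unless the setting itself shows it. The share of het peaks with a mutant peak was 90.6% within 300 bp, 74.2% with 50% reciprocal overlap, 91.7% at −log10 q of 5 or more in both lists, 82.0% in lists of equal length and 68.7% for peaks of 200 bp or more. In the same order the share of mutant peaks with a het peak was 62.4%, 45.5%, 71.1%, 85.5% and 87.1%. The TSS share of unshared het peaks was 5.28%, 10.5%, 9.21%, 9.99% and 7.70%, and that of unshared mutant peaks 5.87%, 10.2%, 8.44%, 15.8% and 8.38%. In Chd7-activated genes, unshared het peaks were 10.6% within 300 bp, 9.001% at the stricter q, 32.8% at 200 bp or more and 15.4% when assigned by nearest TSS, and unshared mutant peaks 38.6%, 29.5%, 11.8% and 44.5%. Ranking by fold enrichment gave 9269 mutant-higher and 8231 het-higher regions, and ranking among all peaks of a list 23429 and 677, where the Chd7-activated median reversed to 8.33 points.

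Chosen after seeing the data, the CAGATG share of het-higher regions was 38.3% when ranked by −log10 q, 36.2% by fold enrichment and 42.1% over 1 kb from a TSS. That of mutant-higher regions was 25.9% by fold enrichment and 23.3% around the het summit. The CTCF core shares stayed within their intervals, and the order of the classes was kept for both sets of letters, when ranked by −log10 q or fold enrichment; the letters were not counted for ranks among all peaks of a list. The lowest peaks rest on 7 or 8 tags, and the part of depth in the unshared peaks was not tested.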

Other observations

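The following genes were chosen after their values were seen. Among 1279 protein-coding genes with 10 or more shared regions, the most het-higher regions were counted in Gm20388 (20 of 320) and Fgfr2 (12 of 151), annotated over 4435 and 2961 kb. Nav2, which is involved in neurite outgrowth, had 11 het-higher and 1 mutant-higher region of 70, with a median of -9.11 points. Slc24a3, a sodium-calcium exchanger, had 9 and 2 of 36, Camta1 9 and 2 of 64, and Rbfox3, the NeuN splicing factor of maturing neurons, 8 and 1 of 35. Zfp423, a zinc finger gene of cerebellar development, had 7 and 3 of 40. On the mutant side Klhl32 had 6 mutant-higher and 0 het-higher regions of 18, Adgrl3 6 and 0 of 30, Kank1 5 and 0 of 19, Zbtb20 6 and 1 of 49 and Rbfox1 8 and 2 of 65. Over all genes 5.002% of regions were het-higher and 5.19% mutant-higher, and with 1 list per genotype none of these counts was tested.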
